A study of Mus musculus with 8 samples.

Results

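The cytosolic ribosomal protein genes were taken from the count table by name: gene symbols of the form Rpl or Rps with a number (and an a or x where present), plus Rplp0, Rplp1, Rplp2, Rpsa and the paralogues Rps27l, Rpl22l1, Rpl7l1 and Rpl39l, leaving out symbols that carry -ps. The rule found 80 genes among the 48440 of the table. Of these, 49 encode large subunit proteins and 31 small subunit proteins, and 4 of the 80 are the paralogues. All 80 passed the filter on low counts.

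The cells were 129/Ola mouse embryonic stem cells grown without feeder cells on gelatin in medium with serum. Parental cells (CTNNB1+/+) and β-catenin knock-out cells (CTNNB1-/-) were each given CHIR99021 at 3 μM, an inhibitor of the kinase GSK3 that stabilises β-catenin, or the vehicle DMSO at 0.3 μl per ml, in both cases for 72 hours. Each of the 4 groups had 2 libraries of polyadenylated RNA, and nothing in the labels says whether the 2 came from separate cultures, so the tests measure the spread between libraries, which may be technical. The labels do not say how many lines or clones stand for each genotype, so genotype and cell line cannot be told apart.

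The ribosome is built from ribosomal RNA and about equimolar amounts of its proteins, and in most dividing cells the messages for these proteins are among the most abundant. Many of these messages start with a C followed by a run of pyrimidines, the 5′ terminal oligopyrimidine (TOP) start, through which mTORC1 signalling controls their translation. Free Rpl5 and Rpl11, together with 5S RNA, bind Mdm2, which links faulty ribosome assembly to p53. Because the messages are short and abundant, they have often been copied back into the genome, and the mouse genome carries many processed pseudogenes of them, intronless copies whose sequence can be nearly that of the message.

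The libraries held between 23650310 and 27680387 counts. Ctnnb1 was at 813 to 906 CPM (counts scaled to a common library size) in the 4 parental libraries and at 7.99 to 10.7 CPM in the 4 knock-out libraries. All 12 pluripotency markers listed were present, with a summed level of 6611 and 6617 CPM in parental DMSO, 6018 and 6154 in parental CHIR99021, 6274 and 6520 in knock-out DMSO and 5905 and 5969 in knock-out CHIR99021. The 9 fibroblast or feeder markers, of which Lum, Dcn and Postn were at 0 in every library, summed to 20.4 and 21.95 CPM in parental CHIR99021 and to 9.40 to 17.3 CPM in the other libraries. Of the 9, 6 were under 1 CPM in every library. Pdgfrb (4.29 to 13.6 CPM) and Thy1 (3.78 to 8.06 CPM) held most of the sum. The sum of the 5 mesoderm and endoderm markers was likewise highest in parental CHIR99021, at 15.8 and 16.9 CPM, and lowest in parental DMSO, at 4.89 and 6.27 CPM, with the knock-out libraries at 11.02 to 12.4 CPM. Of the 5, 3 were under 1 CPM in every library, and the others were T (0.0386 to 12.3 CPM) and Gata4 (4.21 to 11.5 CPM). The 4 neuronal markers were lowest in parental CHIR99021 (56.9 and 57.2 CPM, against 95.2 to 122 CPM in the other libraries), and the 4 blood markers summed to at most 0.508 CPM. Mitochondrially encoded genes took 3.18% to 4.11% of counts, highest in the knock-out CHIR99021 libraries. The part of these differences in the results below was not tested.

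The sequences of the pseudogene copies come first, because they bear on what the count of a single ribosomal protein gene holds. Across GENCODE M21, 533 annotated genes had a transcript at least 95% identical to a coding transcript of a member over at least 50% of the copy's length, and 524 of them are processed pseudogenes. They were copies of 76 of the 80 members, and Rps27l, Rpl39l and Rps21 had no copy. The copies held 31.5% of all counts given to members and copies together. For 23 members more counts stood in the copies than in the member's own row, and for 4 members (Rps12, Rpl5, Rpl12 and Rps7) over 90% did. In 31 members under 5% of counts were in copies.

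The pairs below show how alike a gene and its copy can be. The coding sequence of Rpl5 (chr5:107900502-107909005, GRCm38, plus strand), 894 bases, has no difference from the pseudogene Gm15500 (chr7:114705217-114706235, minus strand), so the first 60 coding bases read the same in both.
Rpl5 and Gm15500: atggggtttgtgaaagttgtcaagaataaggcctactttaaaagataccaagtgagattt
The coding sequence of Rps7 (chr12:28630854-28635953, minus strand), 585 bases, differs from Gm6472 (chrX:152909505-152910155, minus strand) at 3 bases. The first 60 coding bases hold differences, given in capitals.
Rps7: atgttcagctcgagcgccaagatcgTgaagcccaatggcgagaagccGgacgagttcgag
Gm6472: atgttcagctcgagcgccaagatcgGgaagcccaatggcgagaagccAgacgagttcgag
Rps13 (chr7:116331505-116334195, minus strand) and Rps13-ps1 (chr8:87047689-87048226) differ at 2 of 456 coding bases, both in capitals in coding bases 381 to 440.
Rps13: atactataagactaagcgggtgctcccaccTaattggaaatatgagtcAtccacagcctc
Rps13-ps1: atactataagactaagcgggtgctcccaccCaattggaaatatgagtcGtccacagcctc
A read from a stretch without a capital cannot be given to the gene or to the copy from its letters. Results below are therefore given for the deposited row of a gene, and again for the row with the counts of its copies added where that ends or makes a call, turns the direction or moves the value by over 1.5 times. That addition was chosen after the data had been seen.

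Levels per length were far more even once the copies were added. Per kilobase of coding transcript, the 76 core members (those that are no paralogue) ran from 59.1 CPM per kb for Rpl5 to 2668 CPM per kb for Rpl7, a 45.2-fold range, with an SD of 1.33 on the log2 scale. With the copies added, the SD was 0.67, the range 12.2-fold, and the median 1345 instead of 923 CPM per kb. The 5 lowest core members in the deposited rows were Rpl5, Rps13, Rpl12, Rps12 and Rps7, for each of which between 89.4% and 96.3% of counts were in copies. The 5 highest were Rpl7, Rps24, Rplp1, Rpl13a and Rps18. After the addition Rps20 was lowest, at 224 CPM per kb, followed by Rpl22, Rpl37, Rpl35 and Rps13, and Rpl3, which lies near the peptidyl transferase centre, was highest at 2725 CPM per kb, followed by Rpl7, Rplp0, Rpl13a and Rps24. These places rest on the annotated lengths: the length used was 3706 bases for Rps20, from 1 annotated transcript, and 2048 bases for Rpl22, against a median of 689 bases over the members, and with copies added Rps20 stood at 829 CPM and Rpl22 at 481 CPM before division by length. For Rpl3 the length was 816 bases, the median of 3 coding transcripts, while its copy Rpl3-ps1 is 1210 bases long. The first place of Rpl3 rests on that length, and the 12.2-fold range on the Rps20 and Rpl3 lengths. The median was similar for the 2 subunits with copies added (1323 CPM per kb for the large and 1347 for the small).

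**Figure D1:**
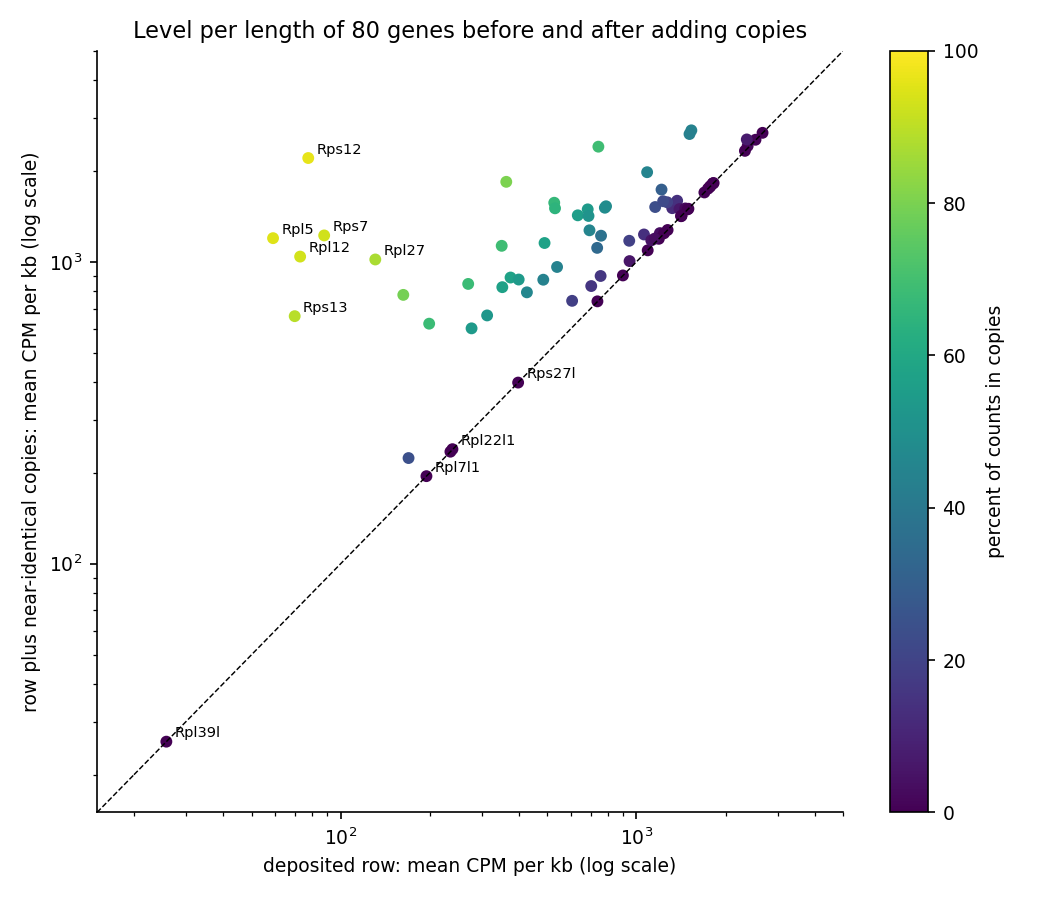
Mean level over 8 libraries per kilobase of coding transcript for each of the 80 genes (CPM per kb, both axes on a log scale), from the deposited row (horizontal) and with near-identical copies added (vertical), coloured by the percent of counts in copies. Rps12, Rpl5, Rpl12, Rps7 and Rps13 lie far above the dashed line of equality, and the 4 paralogues lie on it.

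Of the 4 paralogues, 3 had lower levels per length than their counterparts, and the count of each paralogue is almost free of copies (at most 0.359% of counts). Per kilobase, with copies added, Rpl39l stood at 25.7 CPM per kb against 664 for Rpl39, Rpl7l1 at 195 against 2674 for Rpl7 and Rps27l at 398 against 1193 for Rps27. Rpl22l1 was at 239 CPM per kb and Rpl22 at 235, a comparison that depends on the 2048 bases taken for Rpl22. The encoded proteins, translated from GENCODE M21, differ to unequal extents. Rps27l and Rps27 (84 residues each) and Rpl39l and Rpl39 (51 residues each) differ at 3 positions in each pair, Rpl22l1 shares 73.8% of its 122 residues with Rpl22, and Rpl7l1 shares 45.9% of its 246 residues with Rpl7.

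The starts of the messages were looked at because a TOP start is the feature these genes are known for. RefSeq (GRCm38.p6) gave a start window for 60 of the 80 members, and the other 20 were not used. A C at the annotated start with at least 4 pyrimidines after it, read on the sense strand, was found in 13 of the 60 members (21.7%) and in 3.01% of 27025 genes. A pyrimidine run of at least 8 bases anywhere from 10 bases before to 20 bases from the start on was found in 40.0% of the members and in 13.0% of all genes. The windows below are examples from some of the genes whose values are given in the text, with the longest pyrimidine run in capitals. The share over the members is the 13 of 60 above, not the share among these examples.
Rps6: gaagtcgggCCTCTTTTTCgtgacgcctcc
Rpl28: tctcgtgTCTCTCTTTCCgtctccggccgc
Rps27: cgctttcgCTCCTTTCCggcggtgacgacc
Rps27l: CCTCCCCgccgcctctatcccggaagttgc
Rpl39: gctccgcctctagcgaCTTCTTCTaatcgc
Rpl39l: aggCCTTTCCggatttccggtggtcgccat
Rpl22l1: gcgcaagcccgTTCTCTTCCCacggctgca
They lie at chr4:86857348-86857377 (minus strand), chr7:4792955-4792984 (plus), chr3:90213629-90213658 (minus), chr9:66946076-66946105 (plus), chrX:37085203-37085232 (minus), chr16:10170218-10170247 (plus) and chr3:28805498-28805527 (plus), in that order. Rps6, Rpl28 and Rps27 have the C with at least 4 pyrimidines at the annotated start, and Rps27l, Rpl39, Rpl39l and Rpl22l1 do not. Of the 2 windows RefSeq gives for Rps27l, the one with the longer run is shown. These are matches of letters at annotated starts, and no start site was measured here.

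As a group the ribosomal protein genes shifted little. Levels were higher with CHIR99021 than with DMSO in parental cells, and lower in the knock-out than in parental cells. Summed over the 80 genes, the level was 54514 and 55081 CPM in parental DMSO, 59574 and 56507 in parental CHIR99021, 53981 and 50689 in knock-out DMSO, and 53210 and 52365 in knock-out CHIR99021. Both parental CHIR99021 libraries were above all 6 others, and all 4 knock-out libraries were below all 4 parental ones. The split by genotype depended on the scaling. As a plain percent of all counts, the parental CHIR99021 libraries were still highest (5.90% and 5.57%). Library 1 of knock-out DMSO and of knock-out CHIR99021 (5.41% each) then stood above parental DMSO library 1 (5.37%). With library totals alone the median log2 fold change between the genotypes in DMSO was -0.039, against -0.073. The ratio of the CHIR99021 to the DMSO mean was 1.06 for parental cells and 1.01 for the knock-out, and that of the knock-out to the parental mean was 0.955 with DMSO and 0.910 with CHIR99021. With copies added these 4 ratios were 1.06, 1.01, 0.951 and 0.909. The 2 knock-out DMSO libraries differed from each other by more than their mean differed from that of knock-out CHIR99021.

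**Figure D2:**
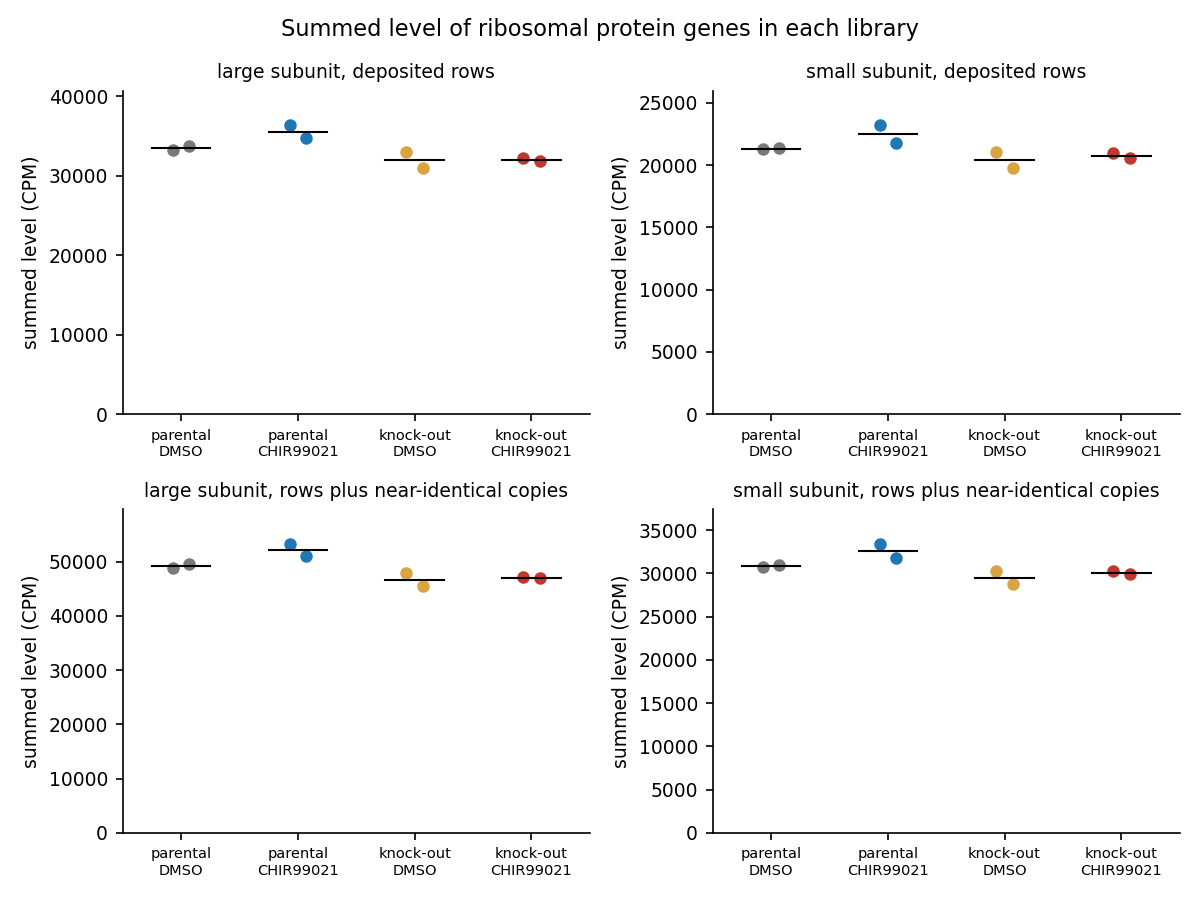
Summed level in CPM of the 49 large subunit genes (left) and the 31 small subunit genes (right) in each library, from deposited rows (top) and with near-identical copies added (bottom). Points are libraries and bars are means of 2 libraries, and the parental CHIR99021 libraries are the highest in each panel.

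The same order of group means held in each subunit. The large subunit sum was 33467 ± 369 CPM (SD, n = 2) in parental DMSO, 35537 ± 1177 in parental CHIR99021, 31938 ± 1414 in knock-out DMSO and 32047 ± 300 in knock-out CHIR99021. For the small subunit the values were 21330 ± 32.5, 22503 ± 992, 20397 ± 913 and 20741 ± 298 CPM. The ratio of the large to the small subunit sum lay between 1.54 and 1.59 in all 8 libraries. It was lowest in the 2 knock-out CHIR99021 libraries (1.54 and 1.55), also with copies added (1.56 and 1.57), a difference that was not tested. In bulk RNA a change in the number of cells that hold a message and a change in RNA per cell cannot be told apart, and CPM are relative to the other genes of the library.

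CHIR99021 in parental cells raised 11 of the 80 genes and lowered 1 (edgeR quasi-likelihood test, Benjamini-Hochberg adjusted p under 0.05 over 17739 genes), which is 13.8% and 1.25% of the members against 9.1% of all genes raised and 10.3% lowered. The members had a median level of 584 CPM, while the share over all genes includes genes with low counts. In a fit on the 11122 genes with at least 5 CPM in 2 libraries, 1591 were called higher and 1670 lower. That fit called 16 members. The part of expression level in these shares and in those below was not tested. The changes were small. The median log2 fold change of the members was 0.08 against 0.004 over all genes, and 71 of the 80 values lay above 0. Rpl29, a large subunit protein, was at 254 and 272 CPM in DMSO and at 313 and 300 CPM in CHIR99021, so that the log2 fold change was 0.22 ± 0.06 (± SE throughout; adjusted p = 0.023), with both treated libraries above both controls. Rpl12, which lies at the base of the stalk, rose by 0.19 ± 0.04 (adjusted p = 0.0074, and 0.084 without parental DMSO library 1; with copies added 0.14 ± 0.03, adjusted p = 0.013), Rpl28 by 0.17 ± 0.05 (adjusted p = 0.048) and Rps15 by 0.15 ± 0.05 (adjusted p = 0.040). The others raised were Rpl26, Rpl9, Rpl14, Rplp0, Rps24, Rpl7 and Rps14, with log2 fold changes of 0.12 to 0.15.

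With copies added, 18 members were called higher and none lower in this comparison, against 9.54% and 11% of all 17458 genes then tested, and 9 of the 12 members called in the deposited rows were among the 18. Rps2 had the highest value (log2 fold change 0.22 ± 0.04, adjusted p = 0.0037), while its deposited row was not called (adjusted p = 0.31). Rpsa, the laminin receptor homologue of the small subunit, was at 2424 and 2473 CPM in DMSO and 2668 and 2598 CPM in CHIR99021 with copies (log2 fold change 0.11, adjusted p = 0.021). Rpl28 (0.14, adjusted p = 0.13) and Rpl14 (0.08, adjusted p = 0.067) were no longer called. The count rested on single libraries: without parental DMSO library 1 only Rpl5 was called in the deposited rows, and without parental DMSO library 2 or parental CHIR99021 library 1 the number called was 4.

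The 1 gene called lower was Rpl5, and its mean with CHIR99021 was higher, not lower, once its copies were counted. Its deposited row was at 90.4 and 88.8 CPM in parental DMSO, 71.5 and 74.4 in parental CHIR99021, 91.6 and 87.1 in knock-out DMSO and 86.2 and 90.1 in knock-out CHIR99021. The 2 parental CHIR99021 libraries stood below the other 6, with a log2 fold change against DMSO of -0.30 ± 0.05 (adjusted p = 0.0010). With its 6 copies, which hold 95.1% of the counts, Rpl5 was at 1778 and 1730 CPM in parental DMSO, 1824 and 1827 in parental CHIR99021, 1611 and 1616 in knock-out DMSO and 1668 and 1734 in knock-out CHIR99021. On those values the log2 fold change was 0.06 (adjusted p = 0.21), and the 2 parental CHIR99021 libraries were the highest of the 8.

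Rps12 showed the same split between rows in an extreme form. Its deposited row held 7.30 and 10.2 CPM in parental DMSO, 128 and 1.34 in parental CHIR99021, 97.6 and 1.56 in knock-out DMSO and 49.7 and 10.2 in knock-out CHIR99021, so that libraries of 1 group differed by up to 95.6-fold. None of its comparisons passed the test, and its SE was 1.31 to 2.05 on the log2 scale. With its 21 copies the same gene lay between 1014 and 1179 CPM in all 8 libraries.

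**Figure D3:**
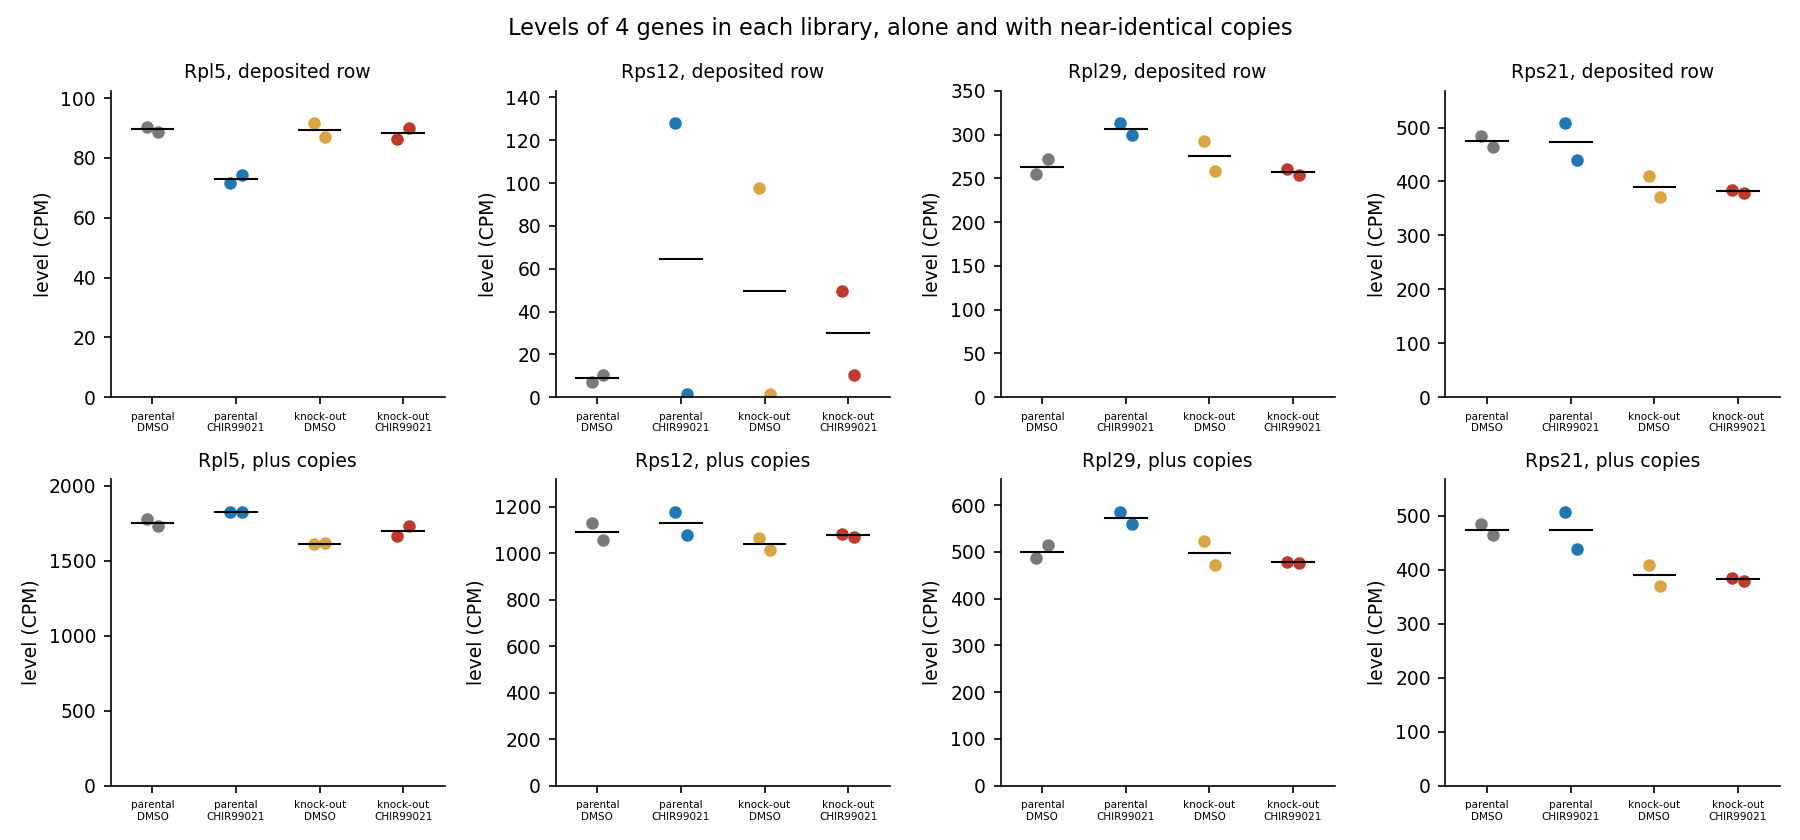
Level in CPM of Rpl5, Rps12, Rpl29 and Rps21 in each library, from the deposited row (top) and with near-identical copies added (bottom), with bars at the mean of 2 libraries. Rpl5 in parental CHIR99021 is lowest in the top row and highest in the bottom row, Rps12 spreads from 1.34 to 128 CPM only in the top row, and Rps21 has no copies.

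In the knock-out cells CHIR99021 changed none of the 80 genes by the edgeR test, against 2.88% of all genes raised and 4.18% lowered. An unadjusted p under 0.05 was reached by 6 members, and DESeq2 also called 0. The median log2 fold change was 0.02, against -0.003 over all genes, and 46 of 80 values lay above 0. With copies added there were again 0 calls, against 3.4% and 4.3% of all genes, with 12 members at an unadjusted p under 0.05. Rps27a, a fusion of ubiquitin with a small subunit protein, had a log2 fold change of 0.15 ± 0.08 (adjusted p = 0.26) in its deposited row and 0.09 ± 0.04 (adjusted p = 0.19) with copies added. Rpl39l, at 23.3 and 21.7 CPM in DMSO and 19.8 and 19.5 CPM in CHIR99021, had a log2 fold change of -0.20 ± 0.07 (adjusted p = 0.10), and Rpl22l1 had -0.17 ± 0.05 (adjusted p = 0.062). The median changed sign without knock-out DMSO library 2, to -0.03.

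The difference between the 2 CHIR99021 responses was itself tested as an interaction, the log2 fold change in the knock-out minus that in parental cells. It passed the threshold for 2 members, Rpl5 above 0 and Rpl29 below 0, against 3.22% of all genes above and 2.91% below. Rpl29 had an interaction of -0.31 (adjusted p = 0.047): it was at 292 and 258 CPM in knock-out DMSO and 261 and 254 in knock-out CHIR99021, next to the parental values above. Rpl5 had 0.28 (adjusted p = 0.030). Each of the 2 calls was lost in 7 of the 8 fits that left out 1 library. With copies added neither passed (Rpl29: -0.25, adjusted p = 0.051; Rpl5: 0.02, adjusted p = 0.85), and 0 members were called, against 3.71% and 3.12% of all genes, with 13 at an unadjusted p under 0.05. The median interaction of the 80 members was -0.06 against -0.001 over all genes, and 64 of 80 values lay below 0.

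In DMSO the knock-out differed from parental cells in 7 of the 80 genes, 1 higher and 6 lower, which is 1.25% and 7.5% of the members against 3.13% and 3.62% of all genes. The 2 with the greatest change were paralogues, and they moved in opposite directions. Rpl22l1 (chr3:28805436-28807424, plus strand) was at 152 and 161 CPM in parental DMSO and at 112 and 106 in knock-out DMSO, a log2 fold change of -0.52 ± 0.05 (adjusted p = 0.00021). Rpl39l (chr16:10170226-10174911, plus strand) was at 14.0 and 13.8 CPM in parental DMSO and at 23.3 and 21.7 in knock-out DMSO, a log2 fold change of 0.69 ± 0.07 (adjusted p = 0.00033). For both genes the libraries of the 2 genotypes did not overlap in any treatment.

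Of the counterparts of these 2 paralogues, Rpl39 passed the test and Rpl22 did not. Rpl22, at 480 and 484 CPM in parental DMSO and 476 and 452 in knock-out DMSO, had a log2 fold change of -0.05 ± 0.04 (adjusted p = 0.51). Rpl39 fell in its deposited row, from 204 and 197 CPM to 179 and 178 (log2 fold change -0.17 ± 0.04, adjusted p = 0.034), opposite in direction to Rpl39l. That call was lost without any 1 of the 4 parental or the 2 knock-out DMSO libraries (adjusted p between 0.052 and 0.22), and with copies added the log2 fold change was -0.20 (adjusted p = 0.037).

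Of the other genes lower in knock-out DMSO, Rps21 fell by 0.28 on the log2 scale (SE 0.07, adjusted p = 0.028), from 484 and 465 CPM to 410 and 370. Rps21 lies near the end of chromosome 2 (chr2:180257377-180258445), where the 111 tested genes within 5 Mb had a median log2 fold change of -0.20 and 27 of them were called lower and 1 higher. The corresponding neighbourhood medians of the other 6 genes called in DMSO were between -0.05 and 0.05. Rps6, the S6 kinase substrate, fell from 499 and 467 to 421 and 416 CPM in its deposited row (log2 fold change -0.21 ± 0.04, adjusted p = 0.016), but with copies added it was at 1408 and 1387 against 1348 and 1304 CPM (log2 fold change -0.08, adjusted p = 0.15). The Rps6 and Rps21 calls in DMSO were lost without parental DMSO library 1 (adjusted p = 0.16 and 0.17) and without knock-out DMSO library 2 (0.064 and 0.16), among others. Rps24 and Rpl27a made up the 6 (log2 fold changes -0.17 and -0.16), and with copies added Rpl27a was not called (-0.10, adjusted p = 0.21). With copies added 12 members were called lower and 1 higher, against 4.06% and 3.4% of all genes, and 5 of the 7 deposited calls were among the 13. Rps27a (-0.14, adjusted p = 0.040), Rpl12 (-0.14, adjusted p = 0.031), Rpl5 (-0.12, adjusted p = 0.031) and Rpl7 (-0.12, adjusted p = 0.026) were among those that passed with copies added and not in the deposited rows. Leaving out 1 library left between 2 and 7 calls in the deposited rows, and without knock-out DMSO library 2 the median went from -0.07 to -0.02.

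**Figure D4:**
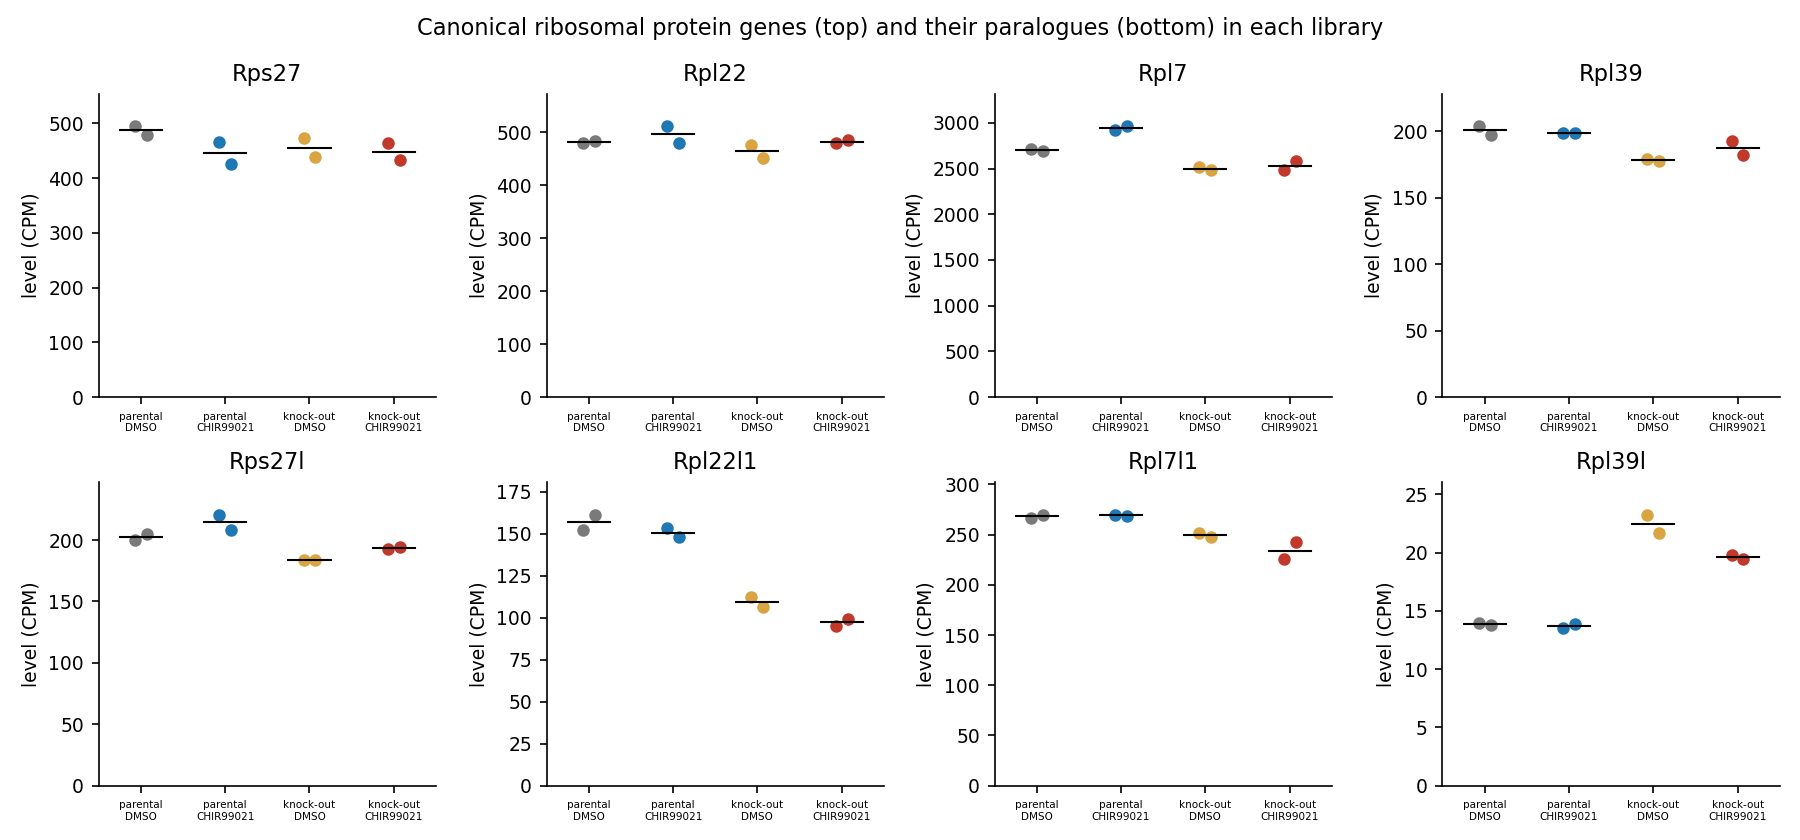
Level in CPM of Rps27, Rpl22, Rpl7 and Rpl39 (top) and of their paralogues Rps27l, Rpl22l1, Rpl7l1 and Rpl39l (bottom) in each library, from deposited rows, with bars at the mean of 2 libraries. Rpl22l1 is lower and Rpl39l higher in all 4 knock-out libraries than in any parental library.

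Under CHIR99021 the knock-out had lower levels of many ribosomal protein genes. Of the 80, 25 were called lower and 2 higher, which is 31.3% and 2.5% of the members against 12.5% and 11.2% of all genes, and 76 of 80 values lay below 0, with a median log2 fold change of -0.13 against 0.001 over all genes. In the fit on genes with at least 5 CPM in 2 libraries, 23 members were called. Of the 11122 genes in that fit, 1812 were called lower and 1947 higher. Of the 49 large subunit genes 19 were called lower, and of the 31 small subunit genes 6 were (medians -0.14 and -0.11), a difference between the subunits that was not tested. With copies added 45 were called lower and 1 higher, against 12.7% and 12.2% of all genes. All 27 genes called in the deposited rows were called again, although Rpl5 changed direction. The comparison shares its parental CHIR99021 libraries with the first one, and without library 1 of that group 8 members were called and the median was -0.08, while scaling by library totals alone left 16 called.

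Rpl22l1 had the lowest called value (154 and 148 CPM in parental cells, 94.9 and 99.5 CPM in the knock-out, log2 fold change -0.63 ± 0.05, adjusted p = 4.7e-06), and Rpl39l again the highest (13.6 and 13.9 against 19.8 and 19.5 CPM, 0.52 ± 0.07, adjusted p = 0.00030). The other paralogues also passed here. Rpl7l1, a relative of Rpl7 that acts in ribosome assembly, was at 270 and 269 CPM in parental cells and 226 and 242 in the knock-out (log2 fold change -0.20 ± 0.04, adjusted p = 0.0045). Rps27l, a p53 target in other settings, was at 221 and 208 against 192 and 195 CPM (-0.15 ± 0.04, adjusted p = 0.020), a call lost without parental CHIR99021 library 1 (adjusted p = 0.18). Rpl7 fell by 0.22 on the log2 scale (SE 0.03, adjusted p = 0.00064), from 2921 and 2965 to 2486 and 2579 CPM. Rpl22, Rps27 and Rpl39 were not called (log2 fold changes -0.04, 0.01 and -0.08), nor were they with copies added, where Rpl39 had -0.14 (adjusted p = 0.075).

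In the deposited rows Rpl35 (log2 fold change -0.32 ± 0.10, adjusted p = 0.049), Rps21 (-0.31 ± 0.07, adjusted p = 0.0054) and Rpl29 (-0.25 ± 0.06, adjusted p = 0.0089) were the next lowest called. For Rps21 the neighbourhood median was -0.18, with 27 of 111 genes called lower and 4 higher. The Rps21 and Rpl29 calls were lost without parental CHIR99021 library 1 (adjusted p = 0.052 and 0.074). Rpl35 was at 228 and 191 CPM in parental cells and 181 and 155 in the knock-out, and DESeq2 did not call it (adjusted p = 0.17). Copies hold 68.1% of the Rpl35 counts, and with them its log2 fold change was -0.20 ± 0.05 (adjusted p = 0.0077), at 658 and 612 against 563 and 544 CPM. On those values Rps21 (-0.31), Rps2 (-0.28, adjusted p = 0.00055) and Rpl29 (-0.26) came after Rpl22l1, and the deposited row of Rps2 was not called (-0.33 ± 0.11, adjusted p = 0.053). Rpl5 was called higher in its deposited row (log2 fold change 0.27 ± 0.05, adjusted p = 0.0016) and lower with copies added (-0.10 ± 0.03, adjusted p = 0.027).

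The stalk recruits the translation factors to the ribosome, and its 3 genes all had values below 0, of which 2 passed the test. Rplp0, its base, was at 1426 and 1396 CPM in parental CHIR99021 and 1248 and 1220 in knock-out CHIR99021 (log2 fold change -0.19 ± 0.04, adjusted p = 0.0059). Rplp1 was at 1365 and 1215 against 1103 and 1090 CPM (-0.24 ± 0.07, adjusted p = 0.027), and DESeq2 did not call it (adjusted p = 0.076). Rplp2 had -0.12 ± 0.06 (adjusted p = 0.18), and passed with no filter on low counts (adjusted p = 0.018) and without parental CHIR99021 library 2 (-0.20, adjusted p = 0.045). Whether the 3 stalk genes differed from each other was not tested. Rpl11, the partner of Rpl5 in binding Mdm2, had -0.21 ± 0.13 (adjusted p = 0.30) in its deposited row, where parental CHIR99021 libraries differed (338 and 243 CPM), and -0.15 (adjusted p = 0.033) with copies added, at 707 and 648 against 618 and 606 CPM. Rps6 was called with copies added only (-0.13, adjusted p = 0.0064). Rpsa and Rps27a were called in neither form (Rpsa: -0.05, adjusted p = 0.38, deposited row; Rps27a: 0.01, adjusted p = 0.93, deposited row, and -0.05, adjusted p = 0.39, with copies).

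**Figure D5:**
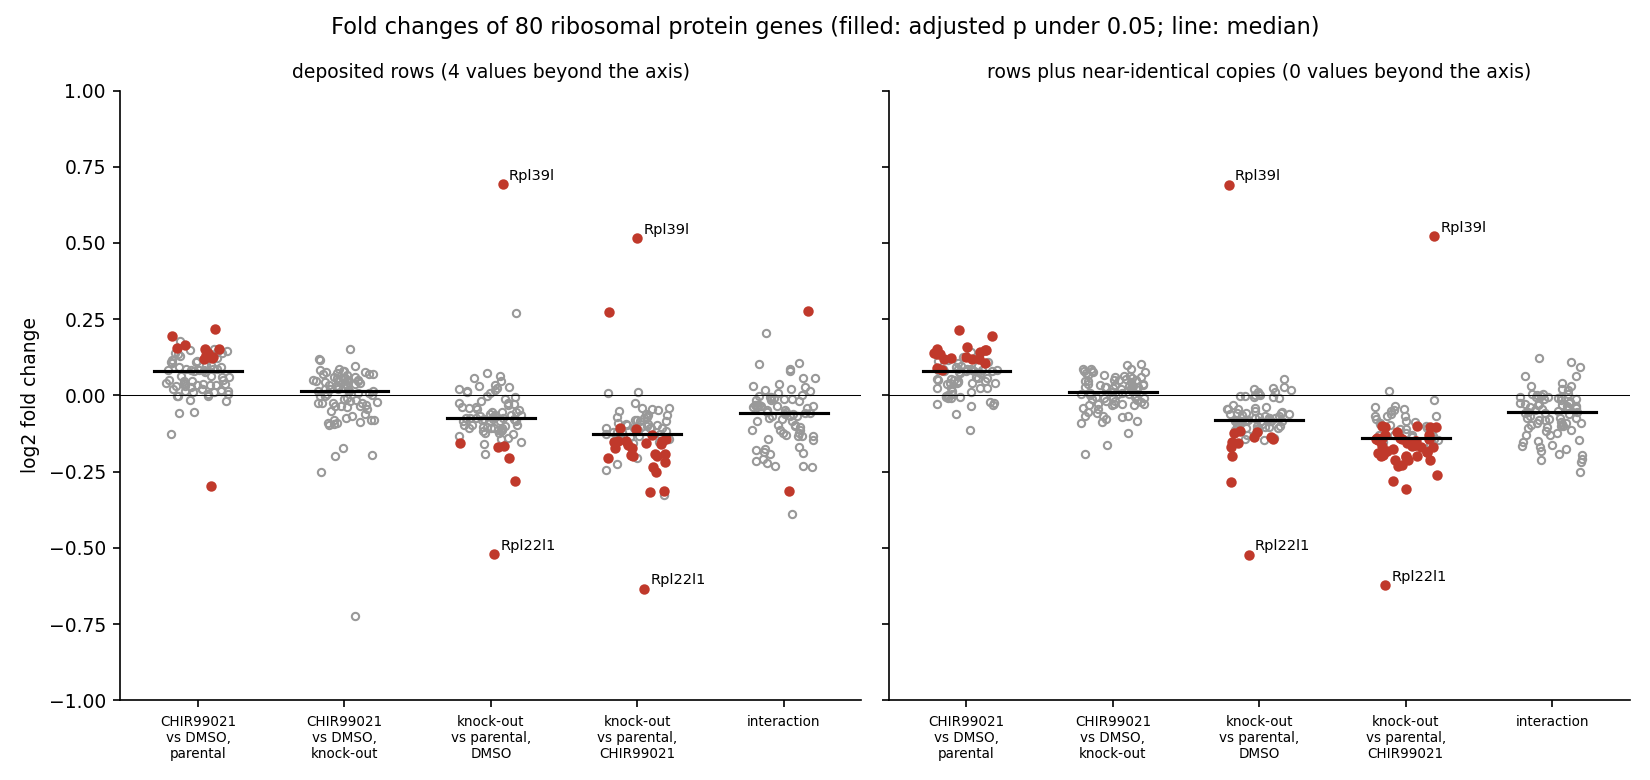
Log2 fold change of each of the 80 genes in the 5 comparisons, from deposited rows (left) and with near-identical copies added (right), with filled points for adjusted p under 0.05 and a line at the median. Most genes called lower are in knock-out against parental cells under CHIR99021, and Rpl22l1 and Rpl39l stand apart from the other genes. Left, 4 values of Rps12 lie beyond the axis.

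Some ribosomal protein genes fall outside the name rule. Of 9 tested, Rpl10l was called in 3 comparisons: higher with CHIR99021 in parental cells (log2 fold change 0.34 ± 0.06, adjusted p = 0.0027) and lower in the knock-out in DMSO (-0.29 ± 0.06, adjusted p = 0.022) and in CHIR99021 (-0.48 ± 0.06, adjusted p = 0.00021). Rack1 and Rpl36al were called lower in the knock-out under CHIR99021 (-0.12 and -0.27). Rps27rt, a retrogene of Rps27, was called higher with CHIR99021 in the knock-out (0.80, adjusted p = 0.038). Its mean was 10.9 CPM in knock-out DMSO and 18.9 in knock-out CHIR99021, where Rps27 was at 455 and 448 CPM. With its 5 near-identical copies added, Rps27 had a mean of 466 CPM in knock-out DMSO and 469 in knock-out CHIR99021. How far reads of Rps27rt and Rps27 can be told apart was not tested, so the Rps27rt call may not be a response of a separate gene. Fau, a fusion of a ubiquitin-like part with a ribosomal protein, was not called in any comparison.

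Genes that act with the ribosome were counted in the same fit, on deposited rows. Of 30 translation factors and other genes with TOP messages, 11 (36.7%) were called lower and 0 higher in the knock-out under CHIR99021, against 12.5% and 11.2% of all genes, with a median log2 fold change of -0.11. Ybx1 (-0.31 ± 0.03), Eif3m (-0.36 ± 0.05) and Pabpc4 (-0.23 ± 0.04) had the smallest adjusted p. In parental cells CHIR99021 raised 3 of these 30 (Pabpc1 by 0.25, Pabpc4 by 0.27, Ybx1 by 0.20) and lowered 2, which is 10.0% and 6.67%, near the 9.1% and 10.3% of all genes. Of 18 tested host genes of small nucleolar RNAs, which carry TOP starts in several cases, CHIR99021 in parental cells raised 9 (50%, against 9.1% of all genes) and lowered 0 (against 10.3%), with a median of 0.18. Snhg5 (0.42 ± 0.04) and Gas5 (0.36 ± 0.05) came first. The knock-out under CHIR99021 had 7 of the 18 lower (38.9%, against 12.5%) and 1 higher (5.56%, against 11.2%).

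Ribosome assembly takes place in the nucleolus and needs many further factors. Of 100 ribosome biogenesis factors, CHIR99021 lowered 10 in parental cells, about the share over all genes (10.3%), and raised 2, against 9.1% of all genes (median log2 fold change -0.03). In the knock-out it lowered 11 and raised 0, against 4.18% and 2.88% of all genes (median -0.05), and Bop1 (-0.27 ± 0.04) and Nolc1 (-0.25 ± 0.04) were among the 11. Among 20 genes of RNA polymerase I and its factors, 1 was raised in parental cells (5.0%, against 9.1%) and 0 lowered (against 10.3%), and 4 were lowered (20%, against 4.18%) and 1 raised (5.0%, against 2.88%) in the knock-out. In the knock-out against parental cells under CHIR99021, 15 biogenesis factors were called lower, close to the 12.5% of all genes, and 1 higher, against 11.2%, with Nop56 (-0.33 ± 0.03) and Nop10 (-0.36 ± 0.05) first. Of 35 initiation factors and their regulators, 9 were lower there (25.7%, against 12.5%) and 1 higher (2.86%, against 11.2%), the one higher being Eif4g3 (1.34 ± 0.05).

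Other gene families with a similar number of tested genes had counts of the same order in that comparison, where 12.5% of all genes were called lower and 11.2% higher. They were not matched to the ribosomal protein genes by level. Of 77 mitochondrial ribosomal protein genes 19 (24.7%) were called lower and 1 (1.30%) higher (median -0.09). Of 78 nuclear genes for oxidative phosphorylation 23 (29.5%) were called lower and 1 (1.28%) higher (median -0.10). The 80 cytosolic genes had 25 lower and 2 higher (median -0.13). Whether the 3 families differed was not tested.

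Among 21 regulators tied to ribosomal proteins, CHIR99021 raised 4 and lowered 4 in parental cells (19.0% each, against 9.1% and 10.3% of all genes) and raised 3 and lowered 4 in the knock-out (14.3% and 19.0%, against 2.88% and 4.18%). The 3 Myc family genes, which encode transcription factors, did not share a direction in parental cells. Mycn and Myc fell there (Mycn -1.39 ± 0.06, Myc -0.37 ± 0.07), and Mycl rose by 0.75 ± 0.10 (adjusted p = 0.00037). In the knock-out Mycn and Myc fell (both -0.97) and Mycl had -0.39 (adjusted p = 0.063). The interaction for Mycl was -1.15 (adjusted p = 0.0010), and under CHIR99021 Mycl was lower in the knock-out than in parental cells (-1.43 ± 0.11, adjusted p = 3.9e-06).

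Trp53, which encodes p53, fell with CHIR99021 in both genotypes (-0.30 and -0.23) and its target Mdm2 rose in both (0.26 and 0.39). Cdkn1a, another p53 target, rose by 1.68 ± 0.06 in parental cells and by 0.37 ± 0.06 in the knock-out (interaction -1.30, adjusted p = 7.0e-06). Between the genotypes the targets went opposite ways under CHIR99021, where Mdm2 was higher in the knock-out (0.41, adjusted p = 0.00035) and Cdkn1a lower (-1.15, adjusted p = 1.7e-07). In DMSO Mdm2 was higher in the knock-out (0.28, adjusted p = 0.016) and Cdkn1a had 0.15 (adjusted p = 0.20).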

How the data were processed

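The authors deposited expected counts per gene, made with kallisto on genome build GRCm38.p4 per the submitters' processing notes. The kallisto version, the transcript set, and whether reads were counted by strand are not given in the sources used here, and 16 of the 80 members overlap a tested gene on the other strand. In edgeR 4.0.16 the rounded values were filtered (filterByExpr over the groups, minimum count 10, minimum total 15), scaled by TMM (factors 0.986 to 1.02) and fitted with 1 mean per group over all 8 libraries (4 residual degrees of freedom, common biological coefficient of variation 0.0532). Tests were 2-sided quasi-likelihood F tests with Benjamini-Hochberg adjustment over all tested genes at 0.05, under R 4.3.3. Each SE was obtained as the size of the log2 fold change over the square root of its F value. DESeq2 1.42.0 was an alternative. Copies were found with blastn 2.17.0 on GENCODE M21 transcripts. Levels per length used the median length of coding transcripts. Protein identity used the annotated principal coding sequences.

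The genes named were the 4 paralogues and their counterparts, the stalk genes, Rpl5, Rpl11, Rps6, Rps27a and Rpsa, the 4 highest and 4 lowest called members of at least 5 CPM in each comparison, the 5 highest and lowest per length, and of each list the 3 called genes with the smallest adjusted p. Rps2, Rps7, Rps12, Rps13, members named for a call that copies made or ended and the list genes without a call were added after their values were seen. The members and lists were chosen with earlier results of these data known. The fitting functions were tested on simulated data.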

Additional observations from a re-analysis of the deposited data

Results flagged for a closer look

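For 2 of the 80 genes the response to CHIR99021 differed between the genotypes by the interaction test. That is 1.25% of the members above 0 and 1.25% below, against 3.22% and 2.91% of all genes. Both calls depended on single libraries, as given above. Rpl29 had an interaction of -0.31 on the log2 scale (edgeR adjusted p = 0.047): it rose by 0.22 with CHIR99021 in parental cells, while for knock-out cells the log2 fold change was -0.10 (adjusted p = 0.35). Rpl5 had an interaction of 0.28 (adjusted p = 0.030), from -0.30 for parental and -0.02 for knock-out cells. With near-identical copies added, Rpl29 had -0.25 (adjusted p = 0.051) and Rpl5 0.02 (adjusted p = 0.85).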

How the results depend on the processing

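With 1 library left out at a time, the number of members called ran from 1 to 16 for CHIR99021 in parental cells, 0 to 1 for CHIR99021 in the knock-out, 2 to 7 for the knock-out against parental cells given DMSO, 8 to 35 for the same given CHIR99021 and 0 to 4 for the interaction, and the medians from 0.033 to 0.125, -0.029 to 0.059, -0.124 to -0.022, -0.175 to -0.081 and -0.111 to -0.013. The counts over all genes changed with the settings as well. At an adjusted p under 0.01 the member counts were 2, 0, 2, 11 and 0. Of all 17739 genes, the calls (higher/lower) were then 820/1077, 136/206, 203/208, 1204/1199 and 282/227. With every gene of at least 1 read tested the member counts were 23, 5, 23, 54 and 14. Of the 31077 genes then tested, the calls (higher/lower) were 1790/2262, 904/1263, 900/1164, 2312/2591 and 1069/921. DESeq2 called 11 members between the genotypes given DMSO and 1 in the interaction. Its calls over all genes (higher/lower) were 318/477 of 11204 and 411/333 of 13612. Scaling by library totals alone gave 16 in knock-out against parental cells in CHIR99021, with 2340 higher and 1681 lower of all 17739 genes. For CHIR99021 in the knock-out, a filter at 5 CPM in 2 libraries, the fit on the compared groups alone and the replicate block each gave 1. Over all genes these settings gave (higher/lower) 746/796 of 11122, 448/563 of 17221 and 548/765 of 17739. Adding near-identical copies, chosen after the data were seen, gave 13, 46 and 0 in the last 3 comparisons, and turned the sign of Rpl5 to 0.057 with CHIR99021 in parental cells and to -0.102 in knock-out against parental cells in CHIR99021.

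The labels do not say whether same-numbered libraries share more than a number. The correlation of their deviations ran from -0.18 to 0.41 over 6 pairs of groups. It was highest between parental CHIR99021 and knock-out DMSO, and its source was not tested. With a replicate block the member counts were 17, 1, 9, 34 and 3, against 12, 0, 7, 27 and 2 without it. Of all 17739 genes, the calls with the block (higher/lower) were 1619/1815, 548/765, 563/662, 2032/2264 and 596/539.

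Of the 25 calls on named members, 5 held under every alternative run: Rpl22l1 and Rpl39l in both comparisons of the genotypes, and Rpl7 in CHIR99021. At 2 libraries per group a log2 change of 0.1 to 0.2 lies near the limit of the test, with a median SE of 0.047.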
